A study of Mus musculus with 6 samples.

Results

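The 9 genes described here encode the voltage-gated sodium channels of central neurons and the scaffold that holds those channels at the axon initial segment. They were chosen by name: the pore-forming subunits Scn1a, Scn2a1, Scn3a and Scn8a, the accessory beta subunits Scn2b, Scn3b and Scn4b, and the scaffold genes Ank3 and Sptbn4. For each gene the RefSeq transcript with the highest mean over the 6 libraries was kept. The 9 genes stand among 25785 gene names in the deposited table, of which 15717 were tested, and all 9 passed the filter on low values. The tissue was whole hippocampus at postnatal day 30 from mice of a strain spelled C57B1/6J in the labels: 3 libraries from PTCHD1 mutant mice and 3 from wild-type mice. After removal of ribosomal RNA, total RNA was sequenced in single reads as strand-specific libraries. The comparison asks how the transcriptome of this tissue differs when Ptchd1, an X-linked gene for a patched-domain membrane protein, is mutated. The labels do not give the allele, sex or litter. Each library title carries a number of its own, but no label says that it marks a mouse, so the spread behind the p-values may be in part technical.

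Voltage-gated sodium channels open on depolarization and carry the inward current of the action potential. A single large pore-forming subunit makes the channel, and beta subunits alter its gating, its surface level and its contacts with adhesion molecules. In central neurons these channels are packed at the axon initial segment, where spikes start, and at nodes of Ranvier. Ankyrin-G, the product of Ank3, binds the channels there and ties them to beta-IV spectrin, the product of Sptbn4. Nav1.1 (Scn1a) is known chiefly from fast-spiking interneurons, Nav1.2 (Scn2a1) from excitatory neurons and immature axons, Nav1.3 (Scn3a) from embryonic brain, and Nav1.6 (Scn8a) from the mature initial segment and nodes.

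In the GENCODE M21 annotation of GRCm38, Scn3a lies at chr2:65457118-65567627 (minus strand), Scn2a1 (there named Scn2a) at chr2:65620771-65767447 (plus) and Scn1a at chr2:66270778-66440840 (minus). Scn8a lies at chr15:100869858-101045938 (plus), Scn3b at chr9:40269217-40291618 (plus), Scn2b at chr9:45117782-45130070 (plus) and Scn4b at chr9:45138395-45154152 (plus). Ank3 lies at chr10:69398773-70027438 (plus) and Sptbn4 at chr7:27356383-27447686 (minus). The 3 pore-forming genes of chromosome 2 are close copies of each other, which bears on how well short reads can be assigned between them. Over whole GENCODE M21 transcripts, windows of 42 bases, the read length inferred from the deposited values, were searched in all other genes' transcripts. Another sodium channel gene held 11.1% of the windows of Scn3a, 9.34% of those of Scn2a1 and 7.03% of those of Scn1a, but 0.179% of those of Scn8a. Reads from such windows could have been split between Scn1a, Scn2a1, Scn3a and the related Scn9a, so the values of these genes carry that uncertainty. Scn9a held 464 of the windows of Scn3a, 371 of those of Scn2a1 and 189 of those of Scn1a. The 3 beta subunit genes and both scaffold genes shared 0 windows with a pore-forming sodium channel gene.

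Values below are normalized read equivalents, the authors' normalized base coverage of a transcript divided by 42, and the values of single libraries stand in the order of replicates 1, 2 and 3 of each group. Before normalization the libraries summed to between 12450000 and 23750000 read equivalents (rounded to 10000). Ptchd1 itself held 181, 150 and 130 in the mutants, against 323, 389 and 411 in wild type. It was the only gene past an adjusted p of 0.05 in limma, at 0.0342, with a log2 change of -1.28 ± 0.14 (SE). Some libraries stood apart: gene deviations followed GC content with a rank correlation of 0.43 in the first mutant library and -0.48 in the second wild-type library (15432 genes each), against -0.18 to 0.08 in the other 4. Markers of choroid plexus, a neighbouring tissue, summed to 54170 and 20101 in wild-type replicates 1 and 3, against 752 to 2754 in the other 4 libraries.

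Ank3 and Scn8a had the clearest differences among the 9 genes, both higher in the mutants, by 1.25-fold and 1.17-fold. Scn3b, a beta subunit gene, was lower, at 0.91 of wild type. The 95% intervals of the other 6 genes included 0. None of the 9 passed an adjusted p of 0.05 in limma, where 0% of all genes tested were called higher and 0.00636% (Ptchd1) lower. At an unadjusted p under 0.05, Ank3 and Scn8a were higher and Scn3b was lower, 2 and 1 of 9, beside 9.01% of all tested genes higher and 9.7% lower. By the p-values in the authors' deposited table, adjusted over the same genes, Ank3 and Scn8a were past 0.05 and none of the 9 was lower, against a background of 4.57% higher and 3.23% lower. Without overlap between the groups, Scn2a1, Scn8a and Ank3 were higher and Scn3b was lower, 3 and 1 of 9, beside 12.3% of all tested genes higher and 12% lower. The median log2 change of the 9 genes was 0.02, beside -0.02 over all genes tested. In bulk tissue, fewer cells of a type and less RNA per cell cannot be told apart.

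**Figure D1:**
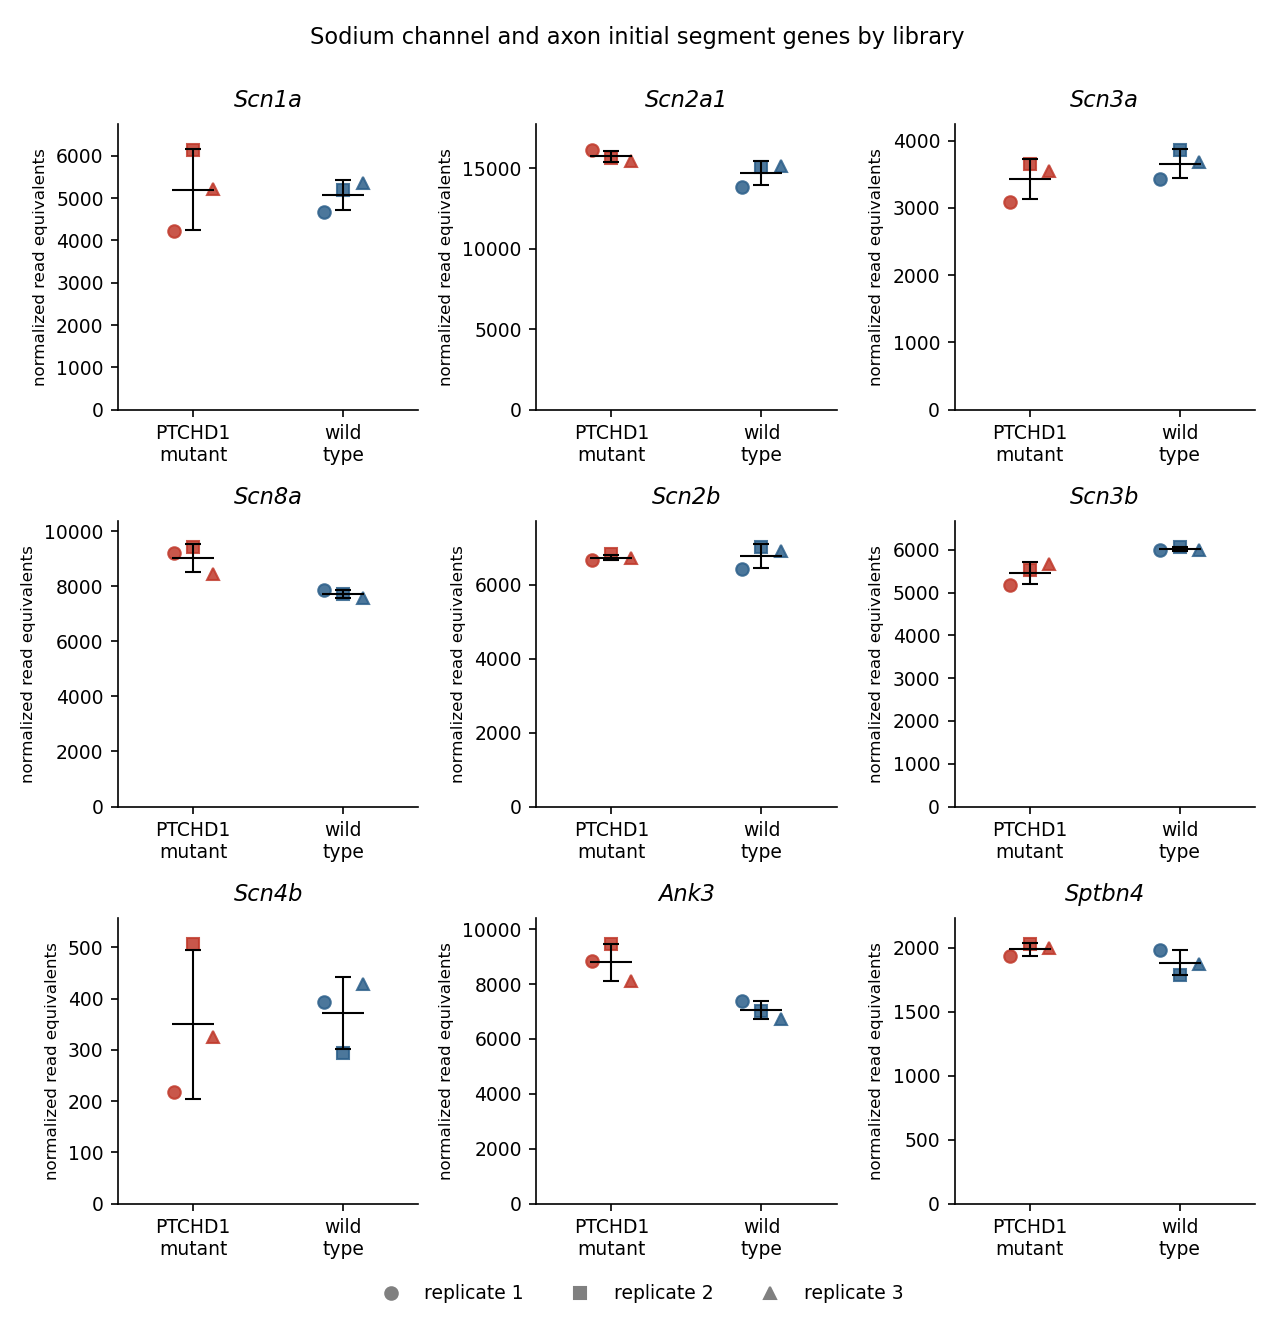
Normalized read equivalents (y axis, from 0) of the 9 genes in the 3 PTCHD1 mutant and 3 wild-type libraries (x axis); each symbol is a library, and the bar and whiskers are the mean and SD. The groups do not overlap for Ank3, Scn8a and Scn2a1 (higher in the mutants) or Scn3b (lower), and Scn1a and Scn4b spread widely among the mutants.

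Among the pore-forming subunits, Scn8a, which encodes Nav1.6, was higher in every mutant library. It held 9197, 9426 and 8442 in the mutants, against 7851, 7712 and 7593 in wild type. The lowest mutant library stood above the highest wild-type one. The means were 9022 ± 515 in the mutants and 7719 ± 129 in wild type (SD, n = 3 each). The log2 change came to 0.22 ± 0.06 (SE), a fold of 1.17 with a 95% interval of 1.06 to 1.29, with an adjusted p of 0.131 in limma. The authors' deposited p for this transcript was 0.000124, or 0.00528 when adjusted over the tested genes. Corrected for GC content and length, the log2 change of Scn8a was 0.11. With library quality weights, a setting that called many more of all tested genes, it was 0.24 with an adjusted p of 0.041 in limma.

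Scn8a had 2 RefSeq rows that differ in their first exons, and the sequence before each start is printed because the data separate the rows. The row of NM_011323, with 26 exons, held more coverage in every library than that of NM_001077499, with 27 exons. The difference, from 92 bases found only in the first less 153 bases found only in the second, was 89.3, 57.5 and 92.5 in the mutants, against 67.3, 81.9 and 61.8 in wild type. These values overlapped between groups, and the mean difference was 79.8 ± 19.4 in the mutants and 70.3 ± 10.4 in wild type (SD, n = 3 each). The upstream start, that of NM_001077499, lies in a promoter of 70.0% GC, and the downstream start, that of NM_011323, in one of 53.3% GC. They run from 250 bases before to 50 after each start, as given by RefSeq on GRCm38.p6, at chr15:100870395-100870694 and chr15:100936021-100936320, both on the plus strand. Capitals mark GCGNGGGCG, the motif of the Egr family of activity-regulated factors, or GGGCGG, the GC box, on either strand.
Scn8a upstream: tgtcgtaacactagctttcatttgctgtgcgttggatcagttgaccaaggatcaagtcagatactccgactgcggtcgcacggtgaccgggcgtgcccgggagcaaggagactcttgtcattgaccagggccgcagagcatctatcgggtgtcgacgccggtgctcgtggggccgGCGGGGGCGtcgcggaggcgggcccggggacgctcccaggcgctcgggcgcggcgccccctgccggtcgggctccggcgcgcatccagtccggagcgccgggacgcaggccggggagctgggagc
Scn8a downstream: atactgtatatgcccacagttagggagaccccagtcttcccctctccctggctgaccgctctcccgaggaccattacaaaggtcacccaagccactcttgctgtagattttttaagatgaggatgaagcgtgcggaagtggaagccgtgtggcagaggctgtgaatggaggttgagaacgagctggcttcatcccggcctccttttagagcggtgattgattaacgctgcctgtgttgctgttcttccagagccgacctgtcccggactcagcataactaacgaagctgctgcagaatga
The upstream promoter held the Egr motif once, and neither motif was in the downstream one. Of all 32851 RefSeq promoters of the same length, 5.55% held the Egr motif and 35.7% the GC box on either strand. A match is a description of letters and shows no binding. Promoters of 6 of the 9 genes were matched, 11 entries in all. The half-site TTCAGCACC of RE1, the element bound by the neuronal repressor REST and known from a sodium channel gene, was searched on both strands. It was in 0 of the 11 entries, beside 0.371% of all promoters. At so low a share, 11 promoters of any genes would seldom hold it. Bases outside these promoters were not searched, and Ank3, Scn3a and Scn3b had no entry. The search therefore cannot show that the genes lack the element.

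Scn2a1, which encodes Nav1.2, had the highest level per kilobase of the 4 pore-forming genes. It held 16134, 15645 and 15441 in the mutants, against 13846, 15104 and 15123 in wild type. The groups did not overlap, although the lowest mutant library, at 15441, was close to the highest wild-type library, at 15123. The log2 change of Scn2a1 was 0.10 ± 0.06 (SE), with a 95% interval of -0.04 to 0.24 and an adjusted p of 0.409 in limma.

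Scn1a, which encodes Nav1.1, differed more among the mutants than between the groups. It held 4224, 6140 and 5229 in the mutants, against 4674, 5195 and 5349 in wild type. Mutant replicates 1 and 2 were the lowest and the highest of all 6 libraries. The coefficient of variation was 18.4% in the mutants and 6.97% in wild type. Between groups Scn1a had a log2 change of 0.02 ± 0.12 (SE), with a 95% interval of -0.23 to 0.28 and an adjusted p of 0.942 in limma. Markers of GABAergic interneurons, in which Nav1.1 is prominent, summed to 12820, 13173 and 12506 in the mutants and to 11484, 12413 and 12339 in wild type, and their part in the Scn1a values was not tested.

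Scn3a, which encodes Nav1.3, held 3089, 3656 and 3544 in the mutants, against 3435, 3862 and 3686 in wild type. The groups overlapped, with mutant replicate 1 the lowest and wild-type replicate 2 the highest. Scn3a had a log2 change of -0.10 ± 0.08 (SE), with a 95% interval of -0.27 to 0.08 and an adjusted p of 0.529 in limma.

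The balance among the 4 pore-forming transcripts was read per kilobase of transcript, so that their lengths do not enter. Scn2a1 made up 49.6% ± 2.56 of the summed level per kilobase in the mutants and 49.3% ± 0.474 in wild type (SD, n = 3 each). The share of Scn8a was 23.0%, 21.9% and 21.0% in the mutants, against 21.4%, 19.5% and 19.3% in wild type, which overlapped (exact two-sided permutation p = 0.2). The share of Scn3a was 10.2%, 11.2% and 11.6% in the mutants, against 12.3%, 12.8% and 12.3% in wild type. The Scn3a shares did not overlap, and the exact two-sided permutation p of 0.1 is the smallest that 3 against 3 libraries can give. The p-values of these shares are not adjusted over the 4 genes. A share falls when the other genes rise, and the level of Scn3a itself overlapped between groups. The shares are not corrected for GC content. The lowest Scn3a share was in mutant replicate 1 and the highest in wild-type replicate 2, the libraries of strongest GC trend.

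Of the beta subunits, none was higher in the mutants on average, and Scn3b alone had groups that did not overlap. Scn3b, which encodes a beta subunit that pairs with the pore without a covalent bond, held 5180, 5520 and 5667 in the mutants, against 6000, 6063 and 5982 in wild type. Every mutant library was below every wild-type one, and the wild-type libraries were within a narrow range. The means were 5456 ± 250 in the mutants and 6015 ± 42.7 in wild type (SD, n = 3 each). The log2 change came to -0.14 ± 0.06 (SE), a fold of 0.906 with a 95% interval of 0.828 to 0.993, with an unadjusted p of 0.0366 and an adjusted p of 0.236 in limma. The 3 RefSeq rows of Scn3b each had a ratio of 0.907, and the authors' deposited p of the row used was 0.0119, or 0.101 adjusted over the tested genes. Its GC-corrected log2 change was -0.12. Mutant replicate 1, the lowest in Scn3b, was also lowest in markers of dentate granule neurons and of oligodendrocytes (given below). Their part in the Scn3b values was not tested.

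Scn2b, which encodes a beta subunit bound to the pore by a disulfide bridge, was the steadiest of the 9 genes. It held 6667, 6816 and 6710 in the mutants, against 6416, 7016 and 6901 in wild type. All mutant values lay inside the wild-type range. Its log2 change was -0.01 ± 0.06 (SE), and the 95% interval of the fold, 0.907 to 1.09, bounds the difference that these libraries leave room for.

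Scn4b, whose product is a proposed blocker behind resurgent sodium current, had the lowest level per kilobase and the widest spread of the 9. It held 218, 507 and 325 in the mutants, against 393, 294 and 430 in wild type. The mutants spanned both ends of the range, with a coefficient of variation of 41.7%, against 18.9% in wild type. Scn4b had a log2 change of -0.15 ± 0.25 (SE), with a 95% interval of the fold from 0.613 to 1.32 and an adjusted p of 0.773 in limma. Markers of the neighbouring thalamus (7 genes, none listed at 0) summed to 4923, 6684 and 4789 in the mutants, against 4660, 4287 and 4523 in wild type. Mutant replicate 2 was thus highest in these markers, and also in Scn4b, Scn1a, Ank3, Scn8a and Sptbn4. Markers of dentate granule neurons (5 genes) summed to 5208, 6615 and 6725 in the mutants and to 6689, 7114 and 6492 in wild type. They were lowest in mutant replicate 1, where Scn4b, Scn1a, Scn3a and Scn3b were also lowest. Markers of oligodendrocytes were also lowest in mutant replicate 1, at 60783, against 72572 to 84216 in the rest. Markers of striatum went the other way and were highest in mutant replicate 1. They summed to 1242, 1076 and 991 in the mutants and to 1148, 815 and 1078 in wild type. The part of these tissues and cells in the values was not tested.

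**Figure D2:**
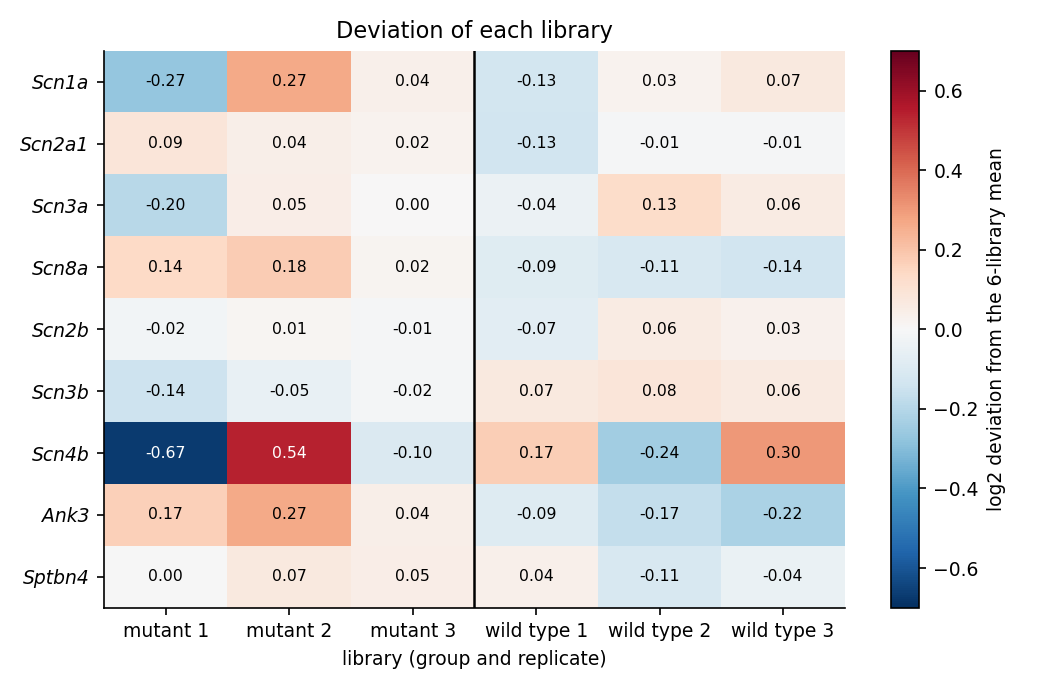
Log2 deviation of each library from the 6-library mean of a gene (colour and printed value) for the 9 genes (rows) in the mutant and wild-type libraries (columns). Scn4b is at -0.67 in mutant replicate 1 and 0.54 in mutant replicate 2, and Scn1a at -0.27 and 0.27, while Ank3 and Scn8a are above 0 in every mutant library and below 0 in every wild-type library.

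Of the scaffold genes, Ank3 was higher in every mutant library and Sptbn4 was not separated. Ank3 held 8835, 9461 and 8101 in the mutants, against 7400, 7010 and 6736 in wild type. The lowest mutant library stood above the highest wild-type library. The means were 8799 ± 681 in the mutants and 7049 ± 334 in wild type (SD, n = 3 each). The log2 change came to 0.32 ± 0.07 (SE), a fold of 1.25 with a 95% interval of 1.12 to 1.39. Its unadjusted p of 0.00103 was at rank 144 of 15717 genes, with an adjusted p of 0.109 in limma. With library quality weights, a setting that called many more of all tested genes, the log2 change was 0.36 with an adjusted p of 0.0262 in limma. The GC-corrected value was 0.25, from 48.3% GC and 9963 bases. Another Ank3 row, matched to 5769 bases of 52.7% GC, held nearly the same coverage, so that correction is uncertain. The authors' deposited p for this row was 1.62e-06, or 0.000279 adjusted over the tested genes. Markers of pyramidal neurons (8 genes, none listed at 0) summed to 50913 to 53272 in the mutants and 43980 to 46919 in wild type, without overlap and with 7 of 8 genes higher on average, and their part in the values of Ank3 and Scn8a was not tested.

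Ank3 had 9 RefSeq rows, and the higher coverage in the mutants was seen along the transcript. The 6 rows of 40 to 43 exons all had a ratio of mutant to wild-type mean of 1.25, and the 3 rows of 18 to 20 exons, which lack the 5′ exons that encode the ankyrin repeats, had ratios from 1.18 to 1.21. The row of 20 exons used here held 4724, 5459 and 4769 in the mutants, against 4319, 4139 and 3922 in wild type. By the matched transcripts, subtracting it from the 43-exon row leaves the coverage of 5551 bases only in the long one, less that of 660 bases only in the short one. A row matched to 5769 bases averaged 8788 in the mutants, against 8799 for the 43-exon row matched to 9963 bases. How many bases the remainder truly covers is therefore uncertain. This remainder was 4111, 4002 and 3332 in the mutants, against 3081, 2871 and 2814 in wild type. Neither part overlapped between groups, and the ratio of means was 1.31 for the remainder and 1.21 for the 20-exon row (exact two-sided permutation p = 0.1 for each, the smallest possible). The remainder made up 43.3% ± 2.84 of the long row in the mutants and 41.5% ± 0.439 in wild type (SD, n = 3 each), shares that overlapped (exact two-sided permutation p = 0.3). Rows share exons and are not independent. The 9 rows were matched to transcripts of 2586 to 9963 bases. Whether they cover the forms of ankyrin-G that act at the initial segment was not examined. The rows cover the exons of GENCODE M21 transcripts that carry the same RefSeq names, and the deposited rows on mm9 may differ in detail.

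Sptbn4 held 1931, 2027 and 1997 in the mutants, against 1982, 1786 and 1871 in wild type. Wild-type replicate 1 lay within the range of the mutants. Sptbn4 had a log2 change of 0.08 ± 0.07 (SE), with a 95% interval of -0.06 to 0.22 and an adjusted p of 0.535 in limma. With 63.7% GC its transcript was the richest in GC of the 9, and the log2 change corrected for GC content and length was -0.18, of the opposite sign. An exon of Sptbn4 overlaps one of a gene model on the same strand, Gm20479, so some coverage may belong to either. Sptbn4 was also the only one of the 9 genes with an exon that overlaps an exon on the opposite strand, that of Gm44924, and the labels do not say whether counting used strand.

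The rows of Sptbn4 split the gene into a 36-exon transcript (NM_032610) and 3′ transcripts with their own first exons (beta-IV spectrin is known in long and short forms). The 19-exon row (NM_001199236) held 1739, 1819 and 1804 in the mutants, against 1804, 1635 and 1725 in wild type. The 36-exon row exceeded it, over 4088 bases of its own less 65 bases of the short row, by 192, 208 and 193 in the mutants, against 178, 151 and 147 in wild type. The groups overlapped for the 19-exon row (ratio of means 1.04) and did not for the remainder (ratio of means 1.25, exact two-sided permutation p = 0.1, the smallest possible). Per kilobase, coverage of the 19-exon row was 7.57 to 10.2 times that of the remainder in every library, so most Sptbn4 coverage lay on the exons that the short transcripts share. The promoters of the long transcript and of the short transcript NM_001199236 are printed because the coverage differs between these rows. They are from RefSeq on GRCm38.p6, at chr7:27446540-27446839 and chr7:27396504-27396803, both on the minus strand and in the orientation of the gene, with capitals as above.
Sptbn4 long: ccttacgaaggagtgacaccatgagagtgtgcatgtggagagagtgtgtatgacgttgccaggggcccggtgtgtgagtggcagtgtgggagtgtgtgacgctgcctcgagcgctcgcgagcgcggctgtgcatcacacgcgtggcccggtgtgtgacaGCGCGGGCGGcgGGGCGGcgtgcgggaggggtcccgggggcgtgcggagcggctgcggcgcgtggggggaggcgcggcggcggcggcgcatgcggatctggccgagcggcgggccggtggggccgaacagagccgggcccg
Sptbn4 short: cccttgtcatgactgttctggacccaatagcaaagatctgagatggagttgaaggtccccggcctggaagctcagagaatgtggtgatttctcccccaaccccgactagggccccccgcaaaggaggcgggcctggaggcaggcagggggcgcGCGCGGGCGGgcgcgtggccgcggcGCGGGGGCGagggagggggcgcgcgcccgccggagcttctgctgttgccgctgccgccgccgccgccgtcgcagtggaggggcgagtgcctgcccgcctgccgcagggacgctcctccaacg
The GC content was 73.7% for the long and 72.0% for the short promoter. The long promoter held the Egr motif once and the GC box 2 times. The short promoter held the Egr motif 2 times and the GC box once. Motifs overlap where a run of capitals is longer than 1 motif. Other short transcripts have their own promoters, which are not printed. That of NM_001199234 held the Egr motif 3 times and the GC box 4 times. That of NM_001199235 held them 0 times and 1 time. The short rows averaged 1787 to 1789 in the mutants and 1721 to 1722 in wild type, so these values do not assign coverage to the printed short start.

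**Figure D3:**
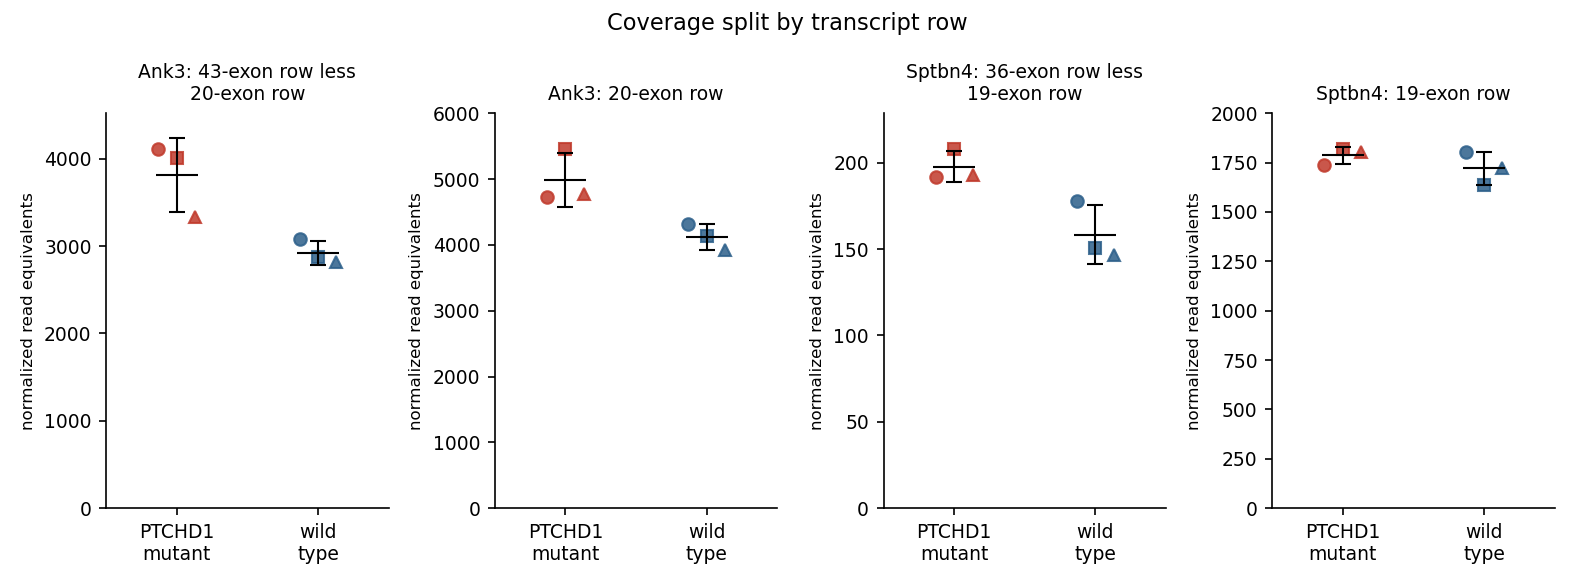
Normalized read equivalents (y axis, from 0) of the short row of Ank3 and Sptbn4 and of the remainder after it is subtracted from the long row, in the 3 mutant and 3 wild-type libraries (symbols, with mean and SD). Both values of Ank3 are higher in every mutant library; for Sptbn4 the groups are apart in the small remainder and overlap in the 19-exon row.

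Levels were compared across genes per kilobase of transcript. In the mutants the mean normalized read equivalents per kilobase were 1811 for Scn2a1, 1701 for Scn2b, 1315 for Scn3b, 883 for Ank3, 803 for Scn8a, 640 for Scn1a, 401 for Scn3a, 227 for Sptbn4 and 70.3 for Scn4b. In wild type they were 1712 for Scn2b, 1691 for Scn2a1, 1449 for Scn3b, 707 for Ank3, 687 for Scn8a, 625 for Scn1a, 428 for Scn3a, 215 for Sptbn4 and 74.7 for Scn4b. Among neighbours in the mutants, the ranges of Ank3 (813 to 950) and Scn8a (752 to 839) overlapped, as did those of Scn8a and Scn1a (520 to 756). In wild type the ranges of Scn2a1 (1593 to 1740) and Scn2b (1621 to 1773) overlapped, as did those of Ank3 (676 to 743) and Scn8a (676 to 699). The other neighbours in each order did not overlap. The level of Ank3 per kilobase is uncertain, since rows with nearly equal coverage were matched to transcripts of 5769 to 9963 bases. Summed per kilobase, the 4 pore-forming genes came to 3656 ± 146 in the mutants and 3431 ± 140 in wild type, and the 3 beta subunit genes to 3086 ± 95.5 in the mutants and 3237 ± 79.4 in wild type (SD, n = 3 each).

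**Figure D4:**
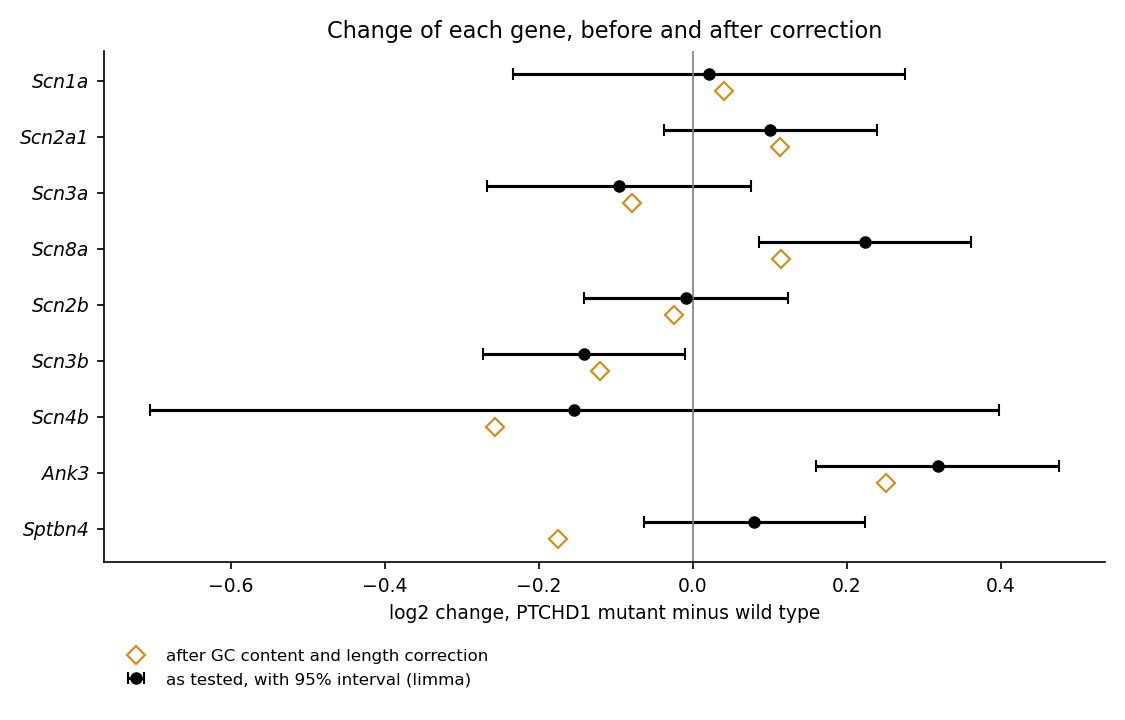
Log2 change of each gene, PTCHD1 mutant minus wild type (x axis), as tested with its 95% interval from limma (filled circles) and after correction for GC content and length (open diamonds). The intervals of Ank3, Scn8a and Scn3b leave out 0, and the corrected value of Sptbn4 has the opposite sign.

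The rest of the channel and initial segment genes were read from lists of related genes. These lists were chosen with earlier results of these data known, so their counts give no independent support. Of 29 genes for scaffolds and adhesion molecules of the initial segment and node, all tested, 24 had a positive and 5 a negative log2 change, with a median of 0.09 beside -0.02 over all genes. None passed the adjusted threshold in limma, 12 were higher and 1 lower at an unadjusted p under 0.05, and 10 were higher by the authors' adjusted p, beside 9.01% higher and 9.7% lower of all tested genes at the unadjusted p and 4.57% higher by the authors' p. Mapre3, a microtubule end-binding protein, held 1772, 1513 and 1372 in the mutants, against 1056, 1004 and 1052 in wild type, a log2 change of 0.57 ± 0.09 (SE; adjusted p = 0.109 in limma). Synpo, which encodes synaptopodin of the spine apparatus and the cisternal organelle of the initial segment, had a log2 change of 0.42 ± 0.07 (SE), the microtubule stabilizer Map6 one of 0.32 ± 0.08, and Ank1, a paralogue of Ank3, one of 0.44 ± 0.13. The groups did not overlap for any of these 4 genes, which were named for having the smallest p of the list. Of the 29 genes, 12 were higher and 2 lower without overlap, beside 12.3% higher and 12% lower of all tested genes. With library quality weights, under which 462 of all tested genes were called higher, the limma adjusted p was 0.0171 for Mapre3, 0.0184 for Synpo, 0.0369 for Ank1 and 0.0535 for Map6. After GC and length correction the log2 change was 0.54 for Mapre3, 0.30 for Synpo, 0.26 for Ank1 and 0.21 for Map6, and without mutant replicate 2 that of Ank1 was 0.27.

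Of 7 potassium channel genes of the initial segment, 6 had a positive log2 change, 2 were higher at an unadjusted p under 0.05 (9.01% of all tested genes), and the median was 0.07. Kcna2, a Kv1 channel of axons, had a log2 change of 0.18 ± 0.07 (SE) and Kcnab2, a Kv1 accessory subunit, 0.06 ± 0.06 (SE). After GC and length correction Kcnab2 was at -0.05, and without mutant replicate 2 Kcna2 was at 0.10.

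Of 11 partners and regulators of sodium channels and of the leak channel NALCN, 9 had a positive log2 change, with a median of 0.08. Unc79, a subunit of the NALCN complex, held 3153, 3007 and 2788 in the mutants, against 2617, 2593 and 2536 in wild type, a log2 change of 0.21 ± 0.06 (SE; adjusted p = 0.147 in limma). Its complex partner Unc80 was at 0.12 ± 0.06, the ubiquitin ligase Nedd4l at 0.14 ± 0.06 and S100a10, a small adaptor of channel trafficking, at -0.25 ± 0.13. The groups of Unc79, Unc80 and Nedd4l did not overlap, and these genes were named for their small p. Of the 11 genes, 3 were higher and 0 lower without overlap, beside 12.3% higher and 12% lower of all tested genes. Corrected for GC content and length, the log2 change was 0.11 for Unc79, 0.04 for Unc80, 0.13 for Nedd4l and -0.10 for S100a10. Of the other pore-forming genes, Scn4a of skeletal muscle and Scn10a and Scn11a of sensory neurons held at most 7.08 in any library and were not tested. Nalcn, the pore of the leak channel, averaged 3782 ± 353 in the mutants and 3670 ± 291 in wild type (SD, n = 3 each). The atypical subunit Scn7a averaged 95.1 ± 22.4 in the mutants and 125 ± 24.5 in wild type. Scn9a, known from sensory neurons, had a log2 change of 0.22 ± 0.17 (SE), and 0.05 without wild-type replicate 3. It held 111 to 185 over the libraries, and some of its reads may come from windows shared with Scn1a, Scn2a1 and Scn3a. None of Nalcn, Scn7a and Scn9a had an unadjusted p under 0.05 in limma.

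**Figure D5:**
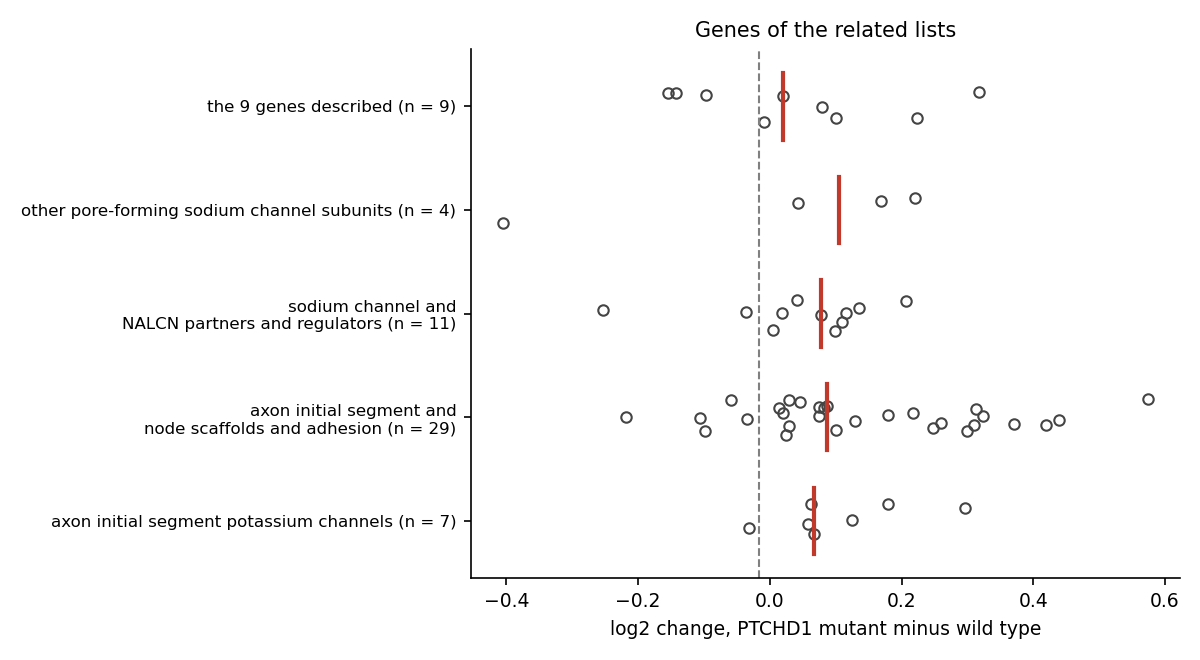
Log2 change, PTCHD1 mutant minus wild type (x axis), of each tested gene (circles) of the 9 genes and of 4 related lists (rows, with the number tested); red bars are list medians and the dashed line is the median of all genes tested, -0.02. The list of scaffolds and adhesion molecules reaches 0.57 (Mapre3) and its median is 0.09.

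Likeness over the 6 libraries was measured as the root mean square difference between the log2 deviations of a gene and each of 60 other genes of the lists, as a description over libraries that share depth and composition. The nearest to Ank3 was Scn8a, at 0.06, and the nearest to Scn8a was Unc79, at 0.03. The nearest to Scn2a1 was Ndel1, at 0.03, to Scn2b Adam22, at 0.02, and to Sptbn4 Bcan, at 0.04. Cntn1 was nearest to both Scn3a and Scn3b, at 0.05 for each, Kcna1 was nearest to Scn1a, at 0.10, and Scn1a was nearest to Scn4b, at 0.28. The last is a loose match, since Scn4b itself deviated by 0.39 over the libraries.

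In the authors' deposited enrichment tables for the genes they called higher, Ank3 and Scn8a were the only 2 of the 9 genes listed. The term axon initial segment held 5 genes, Ank3, Scn8a, Camk2d and Nfasc among them, with a fold enrichment of 10.1 and a corrected p of 1 in the authors' deposited table. The term action potential held 16 genes with a fold of 4.34 and a corrected p of 0.0155 there, Ank3 and Scn8a among them. For voltage-gated sodium channel activity the authors' deposited table listed 2 genes, Scn8a and the proton-gated channel Asic2, with a fold of 2.29 and a corrected p of 1. In the present fit Nfasc, the ankyrin-binding adhesion molecule neurofascin, had a log2 change of 0.26 ± 0.09 (SE; adjusted p = 0.162 in limma) and Camk2d, a calcium-dependent kinase subunit, 0.57 ± 0.14 (SE; adjusted p = 0.12 in limma). These terms were drawn from the same 6 libraries and give no independent support.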

How the data were processed

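The 9 genes, the related lists and the marker lists were chosen with earlier results of these data known. The submitters' processing notes name GSNAP, DESeq2 and the mm9 build. Neither versions nor counting settings nor the use of strand are given there. The authors' deposited table gives normalized signal per transcript row. Every value in a library is a whole multiple of a step between 0.759 and 1.42 (100% within 0.01 of a step), and multiples pile up at 42 and 84, so the signal was read as base coverage of 42-base reads divided by a size factor, which no source states. The table also holds an unadjusted p-value and a Z score per row, as deposited by the authors. The deposited enrichment tables give, per the authors, a count of genes, a fold (ratio) and a corrected p-value for each term.

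Coverage was divided by 42. For each gene the RefSeq row of highest mean was kept, and 15717 genes with a mean of at least 10 were tested by limma 3.58.1 (R 4.3.3) after log2(value + 1) (mean-variance trend, two-sided, Benjamini-Hochberg over all genes, threshold 0.05). Log2 changes on this scale understate the change of low genes. The method was tested on simulated data with independent noise for each gene. These held no GC trend or tissue difference between libraries, so they cannot show how many calls would be false here. With 3 libraries a group, an exact permutation test cannot give a p below 0.1. GC content and length came from GENCODE M21 transcripts (98.2% of tested genes), with a spline of 5 degrees of freedom for each. Exons, shared windows and promoters came from GRCm38 annotation, which is not the build of the files, and only sequences and structures were taken from it. Named genes were the 9 genes, up to 4 of each related list with the smallest p, and the gene nearest in pattern to each of the 9. Nfasc, Camk2d and Asic2 were named after the authors' terms were seen. Some genes and sequences are not reported here. The genotype label gave the groups. Replicates were numbered in accession order, and 0 per-sample columns were left out.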

Additional observations from a re-analysis of the deposited data

How the results depend on the processing

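Ank3, Scn8a, Scn2a1 and Scn3b kept the sign of their log2 change under all 17 settings run, from 0.25 to 0.38 for Ank3, 0.11 to 0.27 for Scn8a, 0.06 to 0.12 for Scn2a1 and -0.17 to -0.10 for Scn3b. Leaving out 1 library at a time gave limma adjusted p of 0.0597 to 0.371 for Ank3 and 0.0845 to 0.38 for Scn8a. None of the 9 genes passed in limma except with library quality weights, where 2 (Ank3 and Scn8a) were higher, as with the authors' deposited p, where 2 were also higher. The other signs turned as follows, and the cause was not tested. GC and length correction gave -0.18 for Sptbn4 and -0.052 for Kcnab2. Library quality weights gave 0.032 for Scn4b and -0.014 for Nalcn. Leaving out 1 library gave Scn1a values of -0.11 to 0.16, Scn2b of -0.048 to 0.017, Scn4b of -0.46 to 0.14 and Nalcn of -0.033 to 0.10. The sign turned without wild-type replicate 1 or mutant replicate 2 for Scn1a, without wild-type replicate 2 or 3 for Scn2b, without mutant replicate 1 for Scn4b, and without wild-type replicate 1 or mutant replicate 1 for Nalcn. Leaving out mutant replicate 1 and wild-type replicate 2 together, chosen after the data were seen, gave 0.017 for Scn3a and 0.023 for Scn2b.

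Over all genes, the count past the threshold was 0 higher and 1 lower. It was 0 lower with no filter on low values, with no mean-variance trend and with quantile normalization, 2 higher with GC and length correction, 462 higher and 343 lower with library quality weights, 718 higher and 508 lower with the authors' deposited p, and 18 higher and 92 lower without both mutant replicate 1 and wild-type replicate 2. Leaving out 1 library gave 0 to 21 higher (21 without mutant replicate 3) and 0 to 36 lower (36 without wild-type replicate 2, 23 without mutant replicate 3). The median of the 9 genes was 0.02, and -0.037 to 0.10 when 1 library was left out, highest without mutant replicate 1. No paired analysis was possible because the labels give the groups no shared replicate numbers. Scn4b had the least coverage of the 9 genes, and the number of libraries limits the precision of all.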

Other observations

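In the authors' deposited motif table for the genes they called higher, the entries named NRSE, REST and NRSF, which stand for the element or factor of neuronal gene repression, listed none of the 9 genes. That table holds only genes called higher, and of the 9 only Ank3 and Scn8a were listed anywhere in it. The absence of the others was fixed by that choice. Ank3 and Scn8a were both listed in the authors' deposited table under HNF4 (1038 genes, a fold of 1.26), AP-2rep (473 genes, a fold of 1.60) and SOX5 (303 genes, a fold of 0.995). Among cell types in the authors' deposited table, Scn8a was listed under CA1 and CA2 pyramidal neurons, a set of 59 genes with a fold of 3.22 and a corrected p of 1.77e-14. The deposited tables that were searched for genes called lower listed 0 of the 9. None of the 9 was lower by the authors' p adjusted over the tested genes, so this absence adds nothing.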
